A study of Mus musculus with 24 samples.

Results

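The genes described here are 33 mouse genes of fatty acid and cholesterol synthesis, measured by RNA sequencing in islets after deletion of Cop1. They were named by symbol for their function, with earlier results of these data known, and no measured value enters the choice rule beyond a minimum level. Of the 33, 32 had a row in the table of 28059 genes, and Hmgcs1 was not analysed here. A gene was kept if it reached 1 RPKM (reads scaled to gene length and to library size) in at least 4 libraries, which left 30 members among 14342 genes tested. Acacb and Idi1 fell below that level and are given apart. By role, the 30 comprise 9 genes of fatty acid synthesis, elongation and desaturation, 5 genes that control the transcription of the others, 15 genes of the mevalonate and sterol pathway, and Stard4, which carries cholesterol between membranes.

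Both pathways start from cytosolic acetyl-CoA, which ATP citrate lyase (Acly) makes from citrate. Acetyl-CoA carboxylase (Acaca) and fatty acid synthase (Fasn) build palmitate from it, elongases and desaturases reshape the chain, and the mevalonate pathway turns the same precursor into isoprenoids and cholesterol. Most of these genes are targets of the SREBP transcription factors, encoded by Srebf1 and Srebf2. SCAP escorts SREBPs from the endoplasmic reticulum to the Golgi for activation when membrane sterol is low, and INSIG proteins hold SCAP back when it is high. In β cells, cholesterol and fatty acid supply affect the formation and release of insulin granules. COP1, the ubiquitin ligase deleted in these mice, marks ETS factors of the PEA3 group for degradation, and in fat tissue a complex of COP1 with Tribbles proteins does the same to acetyl-CoA carboxylase.

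Islets came from mice of mixed background aged 3 to 4 months and were cultured and handpicked before total RNA was taken. The libraries fall into 2 sets by their sample numbers. In each set the control carries floxed Cop1 alleles (Cop1 fl/fl) without Cre, and the Cop1 deletion group adds Pdx1.CreERT2, a Cre recombinase under the Pdx1 promoter, which is active in β cells, that is fused to an estrogen receptor domain and activated by its ligand. All groups, controls included, therefore carry floxed Cop1, and no group carries Cre without floxed alleles. In set 1 the last group is labelled Cop1 fl/fl; Etv1 fl/fl; Etv4 ko/ko; Etv5 fl/fl; Pdx1.CreERT2, below the libraries labelled Etv1/4/5. Set 2 has Cop1 fl/fl; Etv4 ko/+; Etv5 fl/fl; Pdx1.CreERT2 in that place, with 1 Etv4 allele left and Etv1 not floxed, below the libraries labelled Etv4/5. Set 1 had 3 control, 3 Cop1 deletion and 4 Etv1/4/5 libraries, and set 2 had 4 in each group. The labels do not say how libraries relate to mice, so p-values measure the spread between these libraries. In whole islets, fewer cells of a type and less RNA per cell cannot be told apart.

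Relative depth, estimated from the smallest steps of the values, was 0.331 to 0.526 of the deepest library in set 1 and 0.757 to 1 in set 2. Low RPKM values therefore move in larger steps in set 1. Cop1 itself was 1.22 to 1.55 RPKM in set 1 controls and 0.719 to 1.13 in the other libraries of the set, and 1.43 to 1.87 against 0.763 to 0.934 in set 2. Etv4 went against its label, at 0.927 to 1.53 RPKM in the libraries labelled Etv4 ko/ko and 0.0418 to 0.118 in set 1 controls. Etv1 was 4.89 to 5.61 RPKM in these libraries and 4.23 to 5.01 in the Cop1 deletion libraries of set 1. Etv5 was 2.57 to 4.85 and 2.31 to 3.58, so neither level was lower than after Cop1 deletion. Set 1 controls had 5.67 to 7.2 RPKM of Etv1, above both groups, and 2.23 to 8.43 of Etv5. In set 2, Etv4 was 0.778 to 1.2 RPKM with the Etv4/5 label, 0.551 to 1.64 after Cop1 deletion and 0.349 to 0.661 in controls. Etv5 was 1.39 to 1.83, 1.23 to 2.75 and 2.93 to 6.99 RPKM in the same groups. The Etv groups are therefore called by their labels throughout. Esr1, whose sequence is shared with CreERT2, was 99.1 RPKM in the library labelled set 1 control replicate 2 0.169 and 0.191 in the other set 1 controls and 44 to 111 in the libraries labelled with CreERT2. In set 2, control replicate 4 stood apart in the members themselves. Several results for the members are given with and without these 2 control libraries. Fits of genes outside the members include both. Xist was present in all 4 set 2 controls, while 2 Cop1 deletion and 2 Etv4/5 libraries of that set had Y-linked transcripts instead. Set 1 groups were mixed in this respect.

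Set 2 control replicate 4 had 24 of 30 members above every other library of set 2 (80%), compared with 18.4% of all genes tested. Its median ratio to the mean of the other 3 controls was 1.79 over the members and 0.971 over all genes, and 13 members exceeded 2-fold (43.3%, against 6% of all genes). The ratio was 5.75 for Scd1, which makes monounsaturated fatty acids, 4.26 for Fads2, a desaturase of polyunsaturated chains, 4 for Scd2, 3.76 for Mvd, 3.49 for Acat2, 3.41 for Stard4 and 3.4 for Insig1. Acly, Elovl5, Insig2, Scap and Elovl6 lay at or below 1, from 0.846 to 0.997. Acinar markers summed to 825 RPKM in this library and 2660 to 12500 in the other 3 controls, β-cell markers to 166000 against 211000 to 232000, and immune markers to 66.3 against 112 to 138. Adipocyte markers summed to 15.1 RPKM against 23.2 to 32.9, and Adipoq, Plin1, Cfd and Lep never exceeded 0.0865 RPKM in any library. The part of these differences in the members' levels was not tested.

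**Figure D1:**
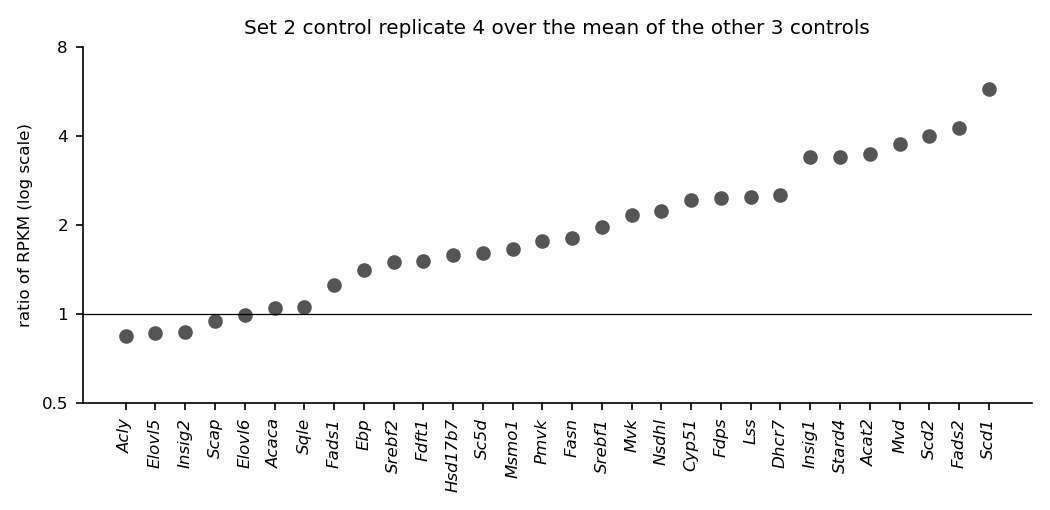
Ratio of RPKM in set 2 control replicate 4 to the mean of the other 3 set 2 controls for each of the 30 members, on a log axis with 1 point per gene and a line at equality. The ratios run from 0.846 for Acly to 5.75 for Scd1.

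Promoter sequences are shown for 4 members on which the comparisons turn: Hsd17b7, Msmo1 and Cyp51, 3 enzymes of the steps after lanosterol that fell after Cop1 deletion, and Elovl6, a fatty acid elongase whose change differed between the sets. Each is the 250 bases before the RefSeq start site in GRCm38.p6, whereas the reads were mapped to mm9. Capitals mark the NF-Y box CCAAT on either strand. NF-Y is a general factor known to act beside SREBP at sterol-regulated promoters. Hsd17b7 lies on the minus strand at chr1:169969206-169969455, Msmo1 on the minus strand at chr8:64733579-64733828, Cyp51 on the minus strand at chr5:4104698-4104947 and Elovl6 on the plus strand at chr3:129532136-129532385.
Hsd17b7: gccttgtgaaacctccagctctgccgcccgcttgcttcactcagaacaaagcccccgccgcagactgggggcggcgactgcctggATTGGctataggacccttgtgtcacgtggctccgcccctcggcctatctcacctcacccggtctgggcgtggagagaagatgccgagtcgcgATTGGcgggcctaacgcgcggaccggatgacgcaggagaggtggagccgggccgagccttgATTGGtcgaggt
Msmo1: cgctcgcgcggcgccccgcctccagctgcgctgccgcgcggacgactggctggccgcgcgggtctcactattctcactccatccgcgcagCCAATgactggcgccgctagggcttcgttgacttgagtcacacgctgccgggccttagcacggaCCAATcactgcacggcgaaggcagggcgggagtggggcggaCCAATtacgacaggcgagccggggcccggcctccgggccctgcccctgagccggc
Cyp51: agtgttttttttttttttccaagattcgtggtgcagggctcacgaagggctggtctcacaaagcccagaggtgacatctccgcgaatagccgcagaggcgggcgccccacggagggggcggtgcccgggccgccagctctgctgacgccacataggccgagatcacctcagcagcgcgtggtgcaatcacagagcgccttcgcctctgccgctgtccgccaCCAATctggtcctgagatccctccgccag
Elovl6: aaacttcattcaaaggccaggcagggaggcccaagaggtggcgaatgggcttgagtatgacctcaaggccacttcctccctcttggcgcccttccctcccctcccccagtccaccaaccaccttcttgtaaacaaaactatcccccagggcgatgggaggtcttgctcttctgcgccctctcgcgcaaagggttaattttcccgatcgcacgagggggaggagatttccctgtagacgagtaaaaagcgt
The Hsd17b7 window holds 3 boxes, the Msmo1 window 3, the Cyp51 window 1 and the Elovl6 window none. RefSeq windows were found for 26 of the 33 members. At least 1 box was present in 20 of the 26, and in 21 of their 34 windows, compared with 33.8% of the 32851 windows of all genes. The sterol regulatory element TCACNCCAC was found in 1 of the 34 windows, that of Hmgcs1, against 1.05% of all windows, and the ETS core CCGGAA in 5 of the 34 against 12%. Both strands were searched for each motif. A match is a description of the letters and not a site of binding.

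Levels per gene length (RPKM) spanned a wide range. Acly was the most abundant member, at 403 ± 35 RPKM in set 1 controls (SD, n = 3) and 800 ± 82 in set 2 controls (n = 4), and Acaca among the lowest, at 1.67 ± 0.076 and 1.19 ± 0.036. Msmo1 (106 ± 16), Insig1 (87.2 ± 13), Elovl5 (70.7 ± 9.2), Sqle (63.7 ± 5.9) and Scd2 (59.4 ± 11) followed in set 1 controls. Acat2 and Scd1 were near 3 RPKM there, at 3.23 ± 0.3 and 3.3 ± 0.28. The sets differed in level for some members: Insig1 was 72.8 to 95.9 RPKM in set 1 controls and 7.5 to 27.7 in set 2 controls, and Stard4 20.5 to 24.4 and 4.83 to 17.1. Every comparison below stays within a set.

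After Cop1 deletion, some members fell, and 6 of the 9 that did were mevalonate and sterol genes. Averaged over both sets, 9 of 30 members fell and 1 rose (limma, Benjamini-Hochberg adjusted p under 0.05 over all 14342 genes, here "called"). Of all genes tested, 20.1% were called, 9.57% higher and 10.5% lower. The log2 fold change was negative for 24 of 30 members, with a median of -0.23, beside -0.02 for all genes. Without set 2 control replicate 4, the same 9 fell, Scap and Fads1 rose, 21 of 30 were negative and the members' median was -0.08, so the size of the median, but none of the 9 calls, rested on that library. Without the library labelled set 1 control replicate 2, 6 fell and 1 rose, and with both left out 7 fell and 3 rose. Fold changes are on the log2(RPKM + 0.5) scale and understate changes of low genes.

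By role, 6 of the 15 mevalonate and sterol genes tested fell and none rose, with a median of -0.30. This median includes set 2 control replicate 4, where 14 of the 15 lay above every other library of the set. Their median ratio there to the mean of the other controls was 2.16. The 6 calls were kept without that library. Of the 5 control genes 2 fell and 1 rose, and of the 9 fatty acid genes 1 fell. Hsd17b7, the ketosteroid reductase of sterol demethylation, fell most, by 0.67 ± 0.11 (SE) to 0.628 of control (adjusted p = 0.00031, limma). Fdps, which makes farnesyl diphosphate, fell by 0.58 ± 0.17 (adjusted p = 0.02, limma). Without the library labelled set 1 control replicate 2, Fdps was at -0.51 and was not called (adjusted p = 0.057, limma). Cyp51, the lanosterol demethylase, fell by 0.56 ± 0.16 (adjusted p = 0.017, limma). Msmo1, the methylsterol oxidase that acts with Nsdhl and Hsd17b7, fell by 0.49 ± 0.10 (adjusted p = 0.0024, limma). Pmvk, a kinase of the mevalonate pathway, fell by 0.39 ± 0.12, and Sqle, the squalene epoxidase, by 0.38 ± 0.06 (adjusted p = 0.025 and 0.00018, limma). Nsdhl, which shares the demethylation step, had a log2 fold change of -0.19 ± 0.13 (adjusted p = 0.33), and Dhcr7, the last enzyme before cholesterol, -0.07 ± 0.15 (adjusted p = 0.78, limma).

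The control genes moved in both directions. Srebf1 fell by 0.34 ± 0.12 and Srebf2 by 0.26 ± 0.09 (adjusted p = 0.048 and 0.045, limma). These calls were kept in 11 and 12 of 34 alternative settings, with adjusted p up to 0.19 and 0.17, and both were lost without the library labelled set 1 control replicate 2. Scap rose by 0.15 ± 0.04, which is 1.11-fold (adjusted p = 0.012, limma). Acaca was the fatty acid gene that fell, by 0.29 ± 0.09 (adjusted p = 0.025, limma). Fasn had a log2 fold change of -0.19 ± 0.12 and Acly of -0.08 ± 0.07, and neither was called. Hsd17b7, Sqle and Msmo1 were called in each of the 34 alternative settings run for this comparison.

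**Figure D2:**
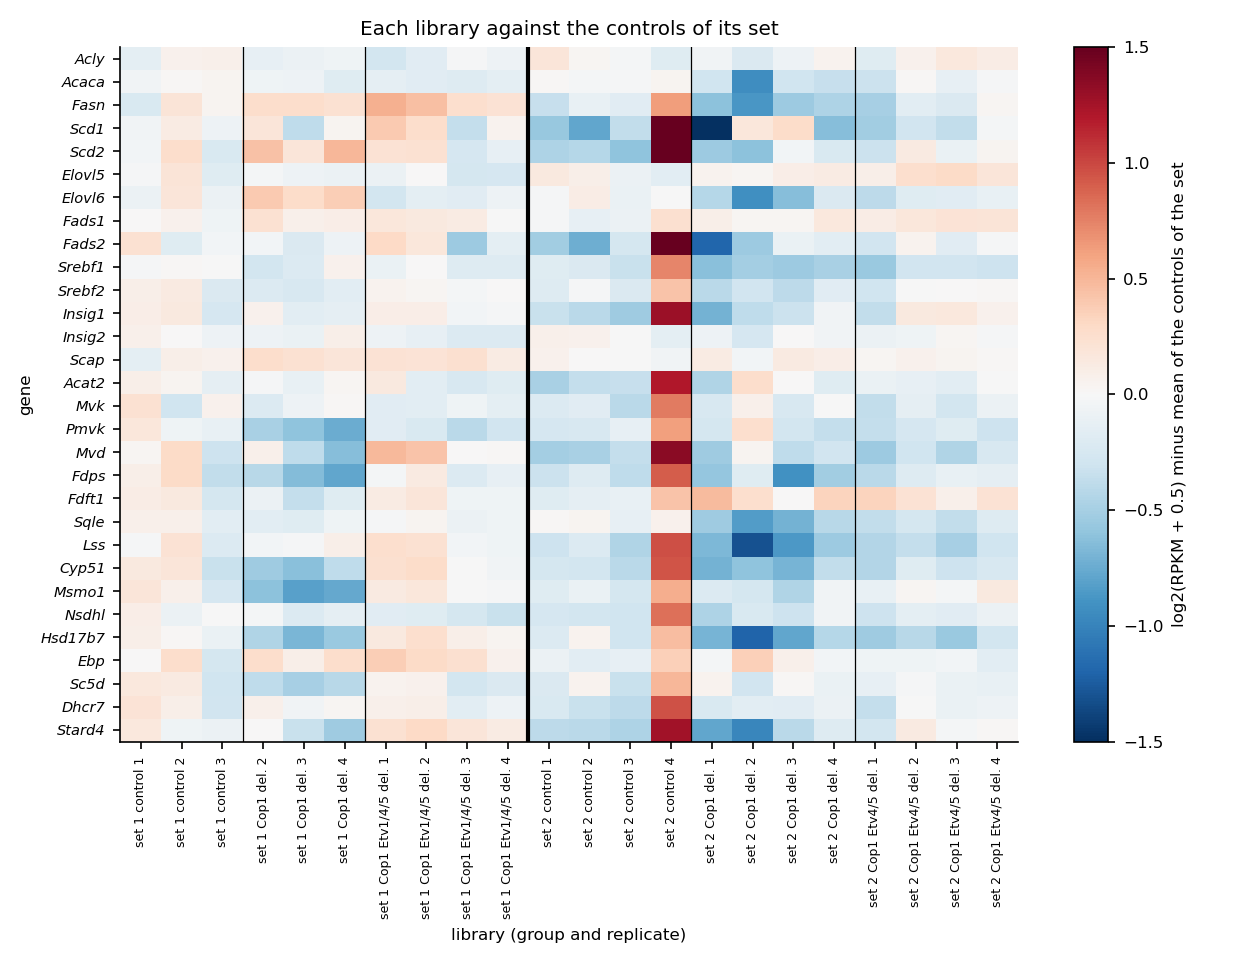
Each of the 30 members (rows) in each of the 22 libraries (columns), as log2(RPKM + 0.5) minus the mean of the controls of the same set, red higher and blue lower, with colours capped at 1.5 in either direction. Msmo1, Hsd17b7 and Cyp51 are blue in the Cop1 deletion libraries of set 1, and the column of set 2 control replicate 4 is red in most rows.

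The values by library show where each set contributed. In set 1, Msmo1 was 119, 111 and 87.9 RPKM in controls, 68.4, 59.7 and 61.5 after Cop1 deletion, and 115, 118, 105 and 104 in the libraries labelled Etv1/4/5. Cop1 deletion libraries were the lowest 3 of the set and did not overlap either other group. Hsd17b7 was 6.6, 6.24 and 5.72 RPKM, then 4.4, 3.64 and 4.05, then 6.89, 7.46, 6.61 and 6.36, with the same order of groups. Cyp51 was 35, 35.8 and 25 RPKM in controls, 21.6, 20.2 and 24 after Cop1 deletion, and 37.2, 38.2, 31.5 and 30.4 in the libraries labelled Etv1/4/5. Its lowest control lay just above the highest Cop1 deletion library. Pmvk was 22.4, 19 and 18.3 RPKM in controls, 14, 12.9 and 11.6 after Cop1 deletion, and 17.5, 16.8, 14.9 and 16.2 in the libraries labelled Etv1/4/5, which lay between the other groups. Scap was 16.6, 19.5 and 19.2 RPKM in controls, 22.2, 21.6 and 21 after Cop1 deletion and 20.1 to 21.8 with the Etv label, above every control in both.

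In set 1 alone, 3 members fell after Cop1 deletion and 1 rose, against 8.33% of all genes called (4.29% lower, 4.04% higher). Msmo1 fell by 0.73 ± 0.16 (adjusted p = 0.0057), Pmvk by 0.62 ± 0.18 (adjusted p = 0.038) and Hsd17b7 by 0.56 ± 0.17 (adjusted p = 0.05 after rounding), and Scap rose by 0.22 ± 0.06 (adjusted p = 0.027, all limma). The members' median was -0.10, beside -0.01 for all genes. After scaling to equal total RPKM it was 0.03, while the median of all genes moved to 0.12, and Scap was then the one member called. Groups did not overlap for 7 members that were lower (Acaca, Pmvk, Fdps, Cyp51, Msmo1, Hsd17b7 and Sc5d) and 4 that were higher (Fasn, Elovl6, Fads1 and Scap), against 15.3% and 14.7% of all genes. Without the library labelled set 1 control replicate 2, Msmo1 and Scap remained called. Without set 2 control replicate 4, which enters the shared estimate of spread, 7 were called, with Fdps, Cyp51 and Sc5d added to those that fell.

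Libraries of set 1 also differed in their sex-linked transcripts. The RPKM of the mevalonate and sterol genes with a row, Idi1 included, was summed in each library. The sum was 363.1 and 354.7 in the 2 controls with Y-linked transcripts and 282.4 in the control with Xist, 264.6 and 256.1 in the 2 Cop1 deletion libraries with Y-linked transcripts, and 241.1 in the one with both. In the libraries labelled Etv1/4/5 it was 355.5 and 360.8 with Y-linked transcripts and 315.6 and 315.4 with both. Among libraries with Y-linked transcripts alone, and among those with both, the Cop1 deletion libraries were lowest. No Cop1 deletion library had Xist alone and no control had both, so only libraries with Y-linked transcripts alone compare Cop1 deletion with control. In a fit that kept only set 1 libraries with Xist under 1 RPKM, Msmo1 was the set 1 member called, at -0.82 (adjusted p = 0.031, limma). That contrast holds 2 controls and 2 Cop1 deletion libraries. One of these controls is replicate 2, which had Esr1 at 99.1 RPKM.

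**Figure D3:**
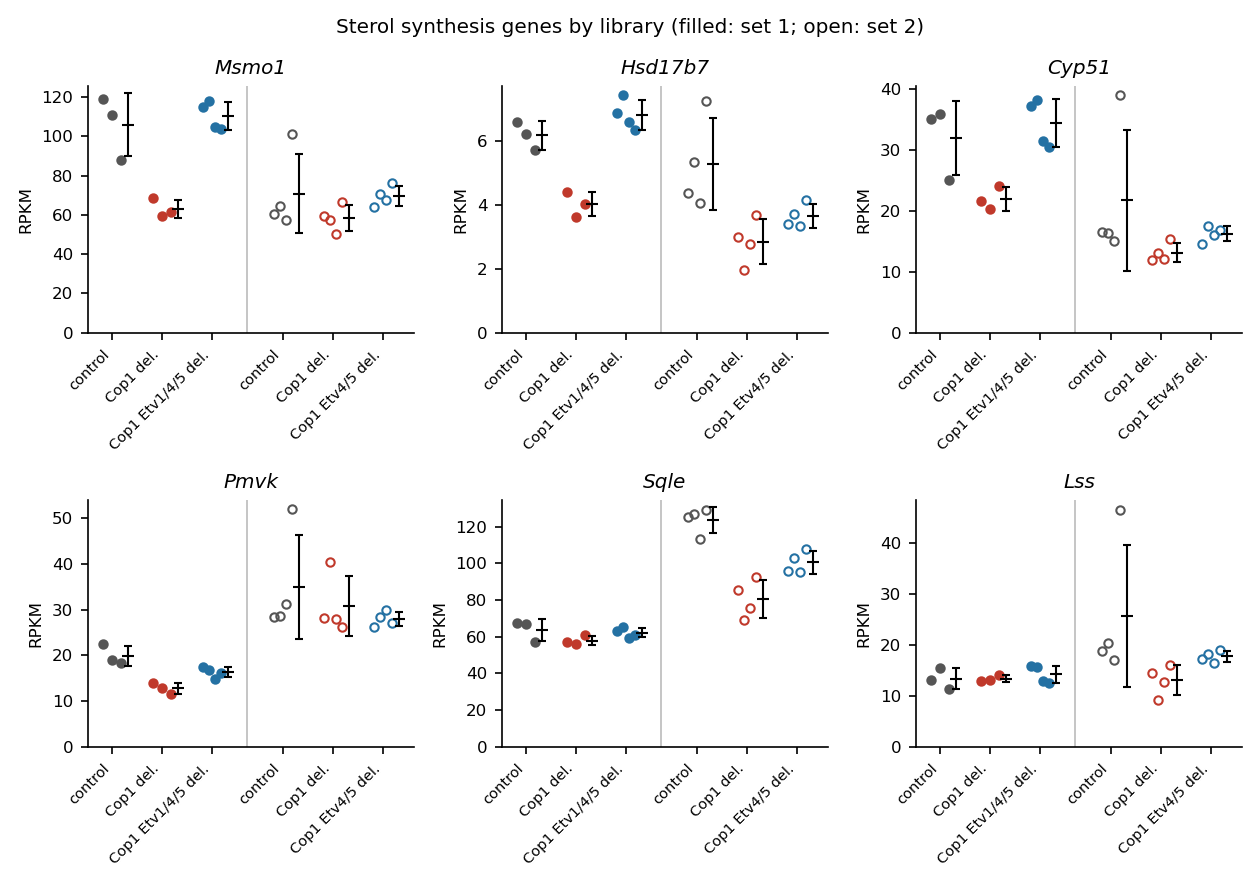
RPKM by library of 6 sterol synthesis genes, with filled points for set 1, open points for set 2, and bars at the mean ± SD. In set 1, Msmo1, Hsd17b7, Cyp51 and Pmvk are lowest in the Cop1 deletion libraries, and in set 2 Sqle is 113 to 129 RPKM in controls and 68.9 to 92.3 after Cop1 deletion.

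Set 2 had a different leading group. Sqle was 125, 127, 113 and 129 RPKM in controls, 85.4, 68.9, 75.5 and 92.3 after Cop1 deletion, and 95.5, 103, 95.2 and 108 in the libraries labelled Etv4/5. The 3 groups did not overlap. Hsd17b7 was 4.39, 5.35, 4.08 and 7.28 RPKM in controls, 2.99, 1.96, 2.78 and 3.69 after Cop1 deletion and 3.35 to 4.16 with the Etv4/5 label. Lss, the cyclase that forms lanosterol, was 18.8, 20.3, 17.1 and 46.6 RPKM in controls and 14.5, 9.22, 12.7 and 16 after Cop1 deletion. Fasn was 14.6, 17.2, 16.5 and 29.2 RPKM in controls and 12, 9.97, 12.6 and 13.4 after Cop1 deletion. Control replicate 4 is the high value in these last 3 genes, and the groups stay apart without it. Acaca was 1.2, 1.15, 1.16 and 1.23 RPKM in controls and 0.868, 0.382, 0.864 and 0.828 after Cop1 deletion, a low transcript whose lowest library had less than the other 3 of its group.

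After Cop1 deletion in set 2, 7 members fell and none rose, against 18.8% of all genes called (9.75% lower, 9.09% higher). They were Lss (-0.84 ± 0.22), Hsd17b7 (-0.78 ± 0.15), Fasn (-0.63 ± 0.16), Sqle (-0.62 ± 0.08), Elovl6 (-0.55 ± 0.11), Srebf1 (-0.54 ± 0.16) and Acaca (-0.47 ± 0.12), with limma adjusted p from 2.5e-05 for Sqle to 0.02 for Srebf1. The 7 were also those without overlap between the groups (8.43% of all genes lower, 7.63% higher). Cyp51 missed the threshold narrowly (-0.60 ± 0.21, adjusted p = 0.05 after rounding). Without control replicate 4 the same 7 fell and Fdft1, the squalene synthase, rose by 0.41 (adjusted p = 0.013, limma). The changes of Lss, Fasn and Srebf1 were then -0.52, -0.41 and -0.30. The members' median went from -0.30 to 0.01 and the number that were negative from 25 to 14 of 30, so the overall shift of the members in set 2 rested on that library while the 7 calls did not. Among set 2 libraries with Xist only, 4 members were called: Sqle (-0.47), Hsd17b7 (-0.56), Acaca (-0.32) and Elovl6 (-0.32).

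Hsd17b7 was the member called in both sets, which is 25% of the set 1 calls and 14.3% of the set 2 calls. Its set 1 call was kept in 11 of 35 alternative settings, with adjusted p up to 0.27 (limma), and its set 2 call in all 35. The log2 fold changes were negative in both sets for 20 members and positive in both for 3. These counts include set 2 control replicate 4, without which fewer members were negative in set 2 (above), so the 20 rest in part on that library. The same counts and shares over all genes were not computed. The difference between the sets was itself tested. Elovl6 and Sqle differed (0.89 ± 0.17, adjusted p = 0.007, and 0.49 ± 0.12, adjusted p = 0.035, limma, set 1 minus set 2), where 2.83% of all genes did (0.997% in the positive and 1.83% in the negative direction). Fasn had a difference of 0.87 ± 0.25 (adjusted p = 0.065), and was called at 0.66 without set 2 control replicate 4 (adjusted p = 0.034, limma). Msmo1, called in set 1 and not in set 2, differed by -0.48 ± 0.21 (adjusted p = 0.24, limma), and by -0.67 without that library (adjusted p = 0.012, limma). Among set 2 libraries with Xist only, Elovl6 remained called at 0.67. With set 1 libraries restricted to Xist under 1 RPKM, the differences of Elovl6 and Sqle were 0.88 ± 0.21 and 0.44 ± 0.14, and neither was called (adjusted p = 0.062 and 0.19, limma).

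Elovl6, which lengthens palmitate and other saturated and monounsaturated chains, had Cop1 deletion as its highest group in set 1 and its lowest in set 2. In set 1 it was 5.2, 6.38 and 5.2 RPKM in controls, 7.46, 6.85 and 7.31 after Cop1 deletion, and 4.5, 4.97, 4.89 and 5.27 in the libraries labelled Etv1/4/5. Cop1 deletion libraries were the highest of that set. In set 2 it was 8.28, 9.07, 7.77 and 8.35 RPKM in controls, 6.1, 4.19, 5.21 and 7.11 after Cop1 deletion, and 6.25, 7.29, 7.35 and 7.7 in the libraries labelled Etv4/5. Here Cop1 deletion libraries were all below the controls. The change in set 1 was 0.34 ± 0.13 (adjusted p = 0.12) and in set 2 -0.55 ± 0.11 (adjusted p = 0.0021, limma).

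**Figure D4:**
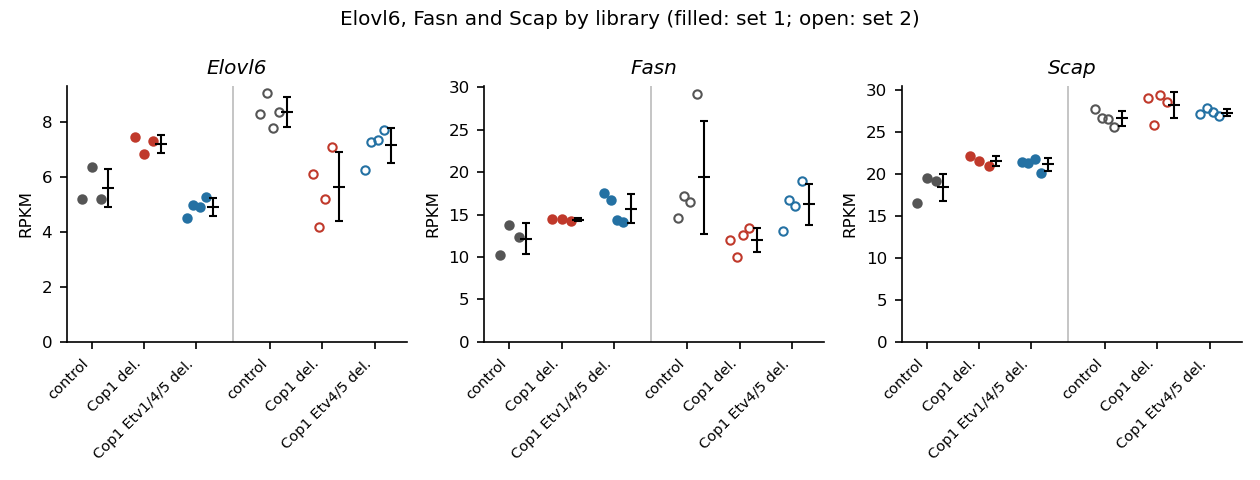
RPKM by library of Elovl6, Fasn and Scap, with filled points for set 1, open points for set 2, and bars at the mean ± SD. Elovl6 after Cop1 deletion is above the controls in set 1 (6.85 to 7.46 against 5.2 to 6.38) and below them in set 2 (4.19 to 7.11 against 7.77 to 9.07).

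Of the 3 members that fell after Cop1 deletion in set 1, Msmo1 and Hsd17b7 were higher in the libraries labelled Etv1/4/5 than after Cop1 deletion, and Pmvk was not called (0.34 ± 0.17, adjusted p = 0.28, limma). Relative to Cop1 deletion, Msmo1 rose by 0.80 ± 0.15, which is 1.74-fold (adjusted p = 0.002), and Hsd17b7 by 0.70 ± 0.16, which is 1.62-fold (adjusted p = 0.012), while Elovl6 fell by 0.51 ± 0.12 (adjusted p = 0.013, all limma). Of all genes, 6.34% were called (3.65% higher, 2.69% lower). Groups did not overlap for 9 members that were higher (Srebf2, Pmvk, Fdps, Fdft1, Cyp51, Msmo1, Hsd17b7, Sc5d and Stard4) and for Elovl6, which was lower, against 16.6% and 14.1% of all genes. Fdps had a log2 fold change of 0.56 ± 0.24, Cyp51 of 0.63 ± 0.22 and Stard4 of 0.50 ± 0.30, with adjusted p of 0.2, 0.11 and 0.41 (limma). Without set 2 control replicate 4 these 3 were also called, with adjusted p of 0.032, 0.002 and 0.049 (limma). After scaling to equal total RPKM, Msmo1 and Elovl6 were called, Hsd17b7 was not, and the members' median went from 0.07 to -0.07 while that of all genes went to -0.13. The comparison shares the Cop1 deletion libraries with the one above, and values in each are set side by side without a test of their relation. Etv4 was higher in these libraries, against their label.

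Against control, 0 of 30 members were called in the libraries labelled Etv1/4/5 (limma), where 1.32% of all genes were (0.899% higher, 0.418% lower). Groups did not overlap for Fasn and Scap, which were higher, and for Acaca, Pmvk and Nsdhl, which were lower, against 6.52% and 7.54% of all genes. At an unadjusted p under 0.05 there were 2, Scap (0.20 ± 0.06) and Insig2 (-0.15 ± 0.07), and with library weights 7 were called. The shares of all genes in these settings are not given here, so neither count is read as a result about the members. Msmo1 was 110 ± 6.9 RPKM (n = 4) there and 106 ± 16 in control (n = 3), and Hsd17b7 6.83 ± 0.47 and 6.19 ± 0.44. Their log2 fold changes from control were 0.07 ± 0.15 and 0.13 ± 0.16. Pmvk remained between the groups, at 16.4 ± 1.1 against 19.9 ± 2.2 RPKM, a change of -0.27 ± 0.17 (adjusted p = 0.69, limma). A p above the threshold does not show equal levels.

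In set 2, Sqle was the one member called between the libraries labelled Etv4/5 and Cop1 deletion, with a rise of 0.32 ± 0.08, which is 1.25-fold (adjusted p = 0.044, limma). Of all genes, 1.73% were called, 0.676% higher and 1.05% lower. Groups did not overlap for Sqle and Lss, both higher, against 7.22% of all genes. The log2 fold change was positive for 22 of 30 members, with a median of 0.16 beside 0.01 for all genes, and for all 9 fatty acid genes tested. The call for Sqle is near the threshold, and leaving out single libraries gave between 0 and 3 called members. Fasn (0.41 ± 0.16) and Stard4 (0.55 ± 0.27) were added without set 2 control replicate 4. Acinar markers moved in this comparison too, summing to 4380 to 23800 RPKM after Cop1 deletion and 1080 to 4480 with the Etv4/5 label, and their part in the members' values was not tested. Against control, Sqle was still lower by the test (-0.30 ± 0.08, adjusted p = 0.022, limma), where 8.74% of all genes were called (4.99% higher, 3.75% lower). Groups did not overlap for Sqle and Elovl6, both lower, against 10.6% of all genes, and for no member that was higher, against 11%. Hsd17b7 was at -0.45 ± 0.15 (adjusted p = 0.072, limma), with 3.35 to 4.16 RPKM against 4.08 to 7.28 in control. Without set 2 control replicate 4, Sqle was at -0.28, Fads1 rose by 0.25 (adjusted p = 0.0076, limma), and the members' median was 0.07 in place of -0.11.

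The effect of the Etv labels differed between the sets for Elovl6 (-0.85 ± 0.16, adjusted p = 0.0073, limma, set 1 minus set 2), where 4.06% of all genes differed (2.34% in the positive and 1.72% in the negative direction). Relative to Cop1 deletion it fell in set 1, and in set 2 its change was 0.33 ± 0.11 (adjusted p = 0.12, limma). Msmo1 differed by 0.54 ± 0.20 (adjusted p = 0.14), and was called at the same value without set 2 control replicate 4 (adjusted p = 0.022, limma). The 2 sets also differ in which Etv alleles are deleted, so set and genotype cannot be told apart.

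**Figure D5:**
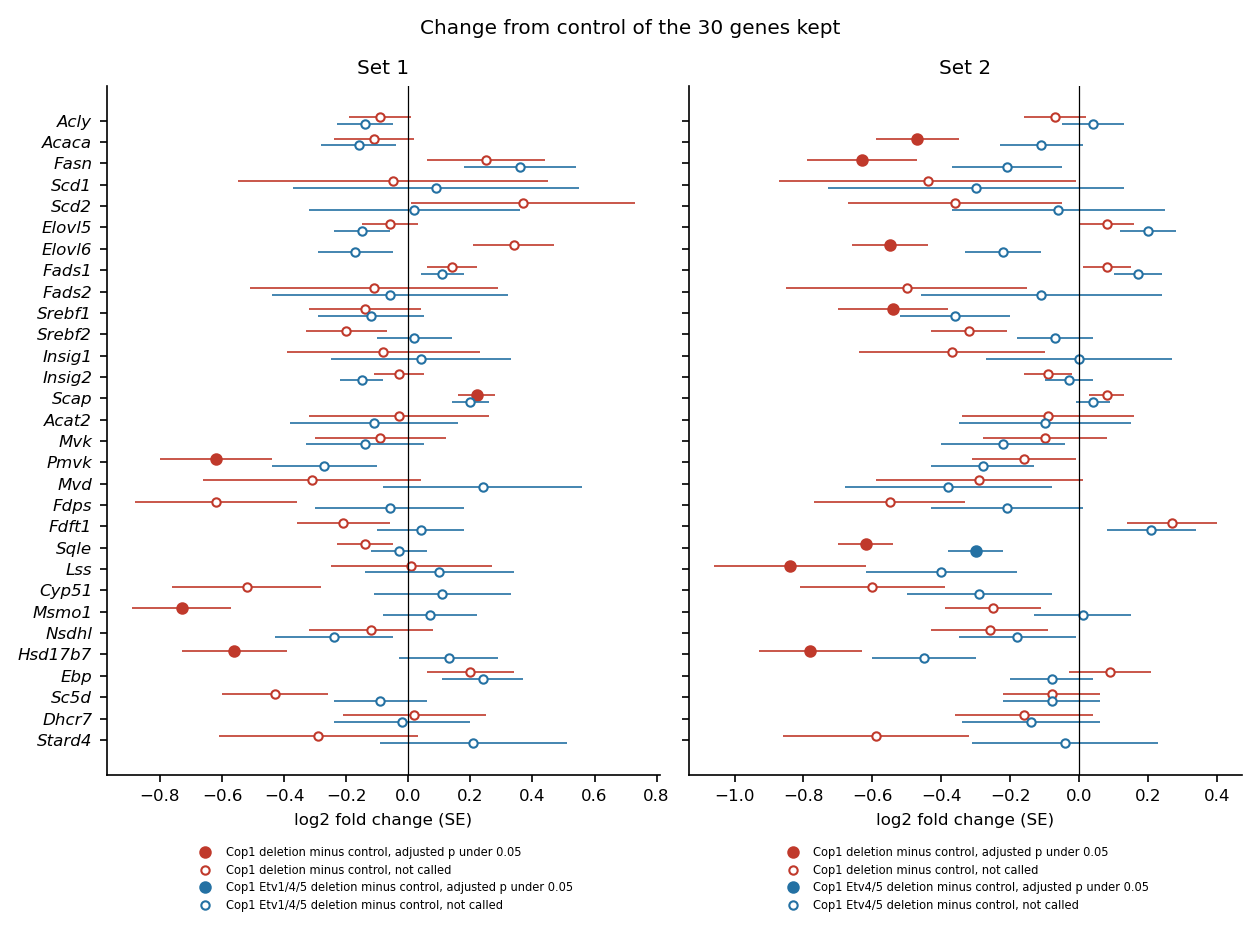
log2 fold change from control (point) with its SE (bar) for the 30 members in set 1 (left) and set 2 (right), red for Cop1 deletion and blue for the libraries labelled with added Etv deletions, filled where the adjusted p is under 0.05. The axes of the panels differ in range. In set 1 the blue points of Msmo1 (0.07) and Hsd17b7 (0.13) lie near 0 while the red ones lie at -0.73 and -0.56.

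The 2 members below the filter were acetyl-CoA carboxylase 2 (Acacb), the isoform linked to control of fatty acid oxidation, and isopentenyl-diphosphate isomerase (Idi1). Acacb never reached 1 RPKM. It was 0.408, 0.395 and 0.363 RPKM in set 1 controls, 0.682, 0.634 and 0.738 after Cop1 deletion and 0.429 to 0.622 with the Etv1/4/5 label. In set 2 it was 0.221, 0.138, 0.177 and 0.165 RPKM, then 0.206, 0.287, 0.445 and 0.368, then 0.232 to 0.271. In a fit on all 23637 genes with a value, Acacb rose after Cop1 deletion by 0.41 ± 0.09 in set 1 and 0.28 ± 0.08 in set 2 (adjusted p = 0.011 and 0.03, limma), while Acaca in the filtered fit was at -0.11 ± 0.13 and -0.47 ± 0.12. Idi1 was 0.843 to 1.07 RPKM in set 1 controls and 0.647 to 0.8 after Cop1 deletion, and was not called (-0.26 ± 0.09 over both sets, adjusted p = 0.082, limma).

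Other genes of these pathways, from lists chosen for their function, were tested in the same fit. That fit includes set 1 control replicate 2 and set 2 control replicate 4. The counts below stand beside 9.57% of all genes called higher and 10.5% called lower over both sets. A gene given only over both sets was not always called in each set. Among the other cholesterol synthesis genes, Lbr and Tm7sf2, both sterol reductases, fell by 0.24 ± 0.06 and 0.48 ± 0.13 over both sets (adjusted p = 0.0054 and 0.013, limma). Ggps1, which makes geranylgeranyl diphosphate, fell by 0.20 ± 0.06 (adjusted p = 0.019, limma). Hsd17b12 was on the same list, although it acts in fatty acid elongation, and fell by 0.29 ± 0.08 (adjusted p = 0.013, limma). Ggps1, and below Trib3, were named after their values were seen. Among genes of cholesterol uptake and trafficking, Gramd1a fell by 0.22 ± 0.06 and Scarb1, a receptor for high-density lipoprotein, rose by 0.37 ± 0.06 (adjusted p = 0.02 and 4e-04, limma). Scarb1 rose by 0.64 ± 0.08 in set 2 and was not called in set 1. The sets differed by -0.53 ± 0.13 (set 1 minus set 2, adjusted p = 0.033, limma). Among 11 genes of efflux and storage tested, Nr1h3, the sterol-sensing receptor LXRα, rose by 0.57 ± 0.11 and Mylip, a ubiquitin ligase that LXR induces, by 0.26 ± 0.08. Of 12 genes that process SREBP or degrade sterol enzymes, Pgrmc1 rose (0.21 ± 0.03) and Ubxn4 fell (-0.17 ± 0.05).

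Supply and control of fatty acid synthesis changed in single genes. Of 11 genes that supply acetyl-CoA and NADPH, Me1 fell (-0.33 ± 0.07) and Idh1 and H6pd rose (0.35 ± 0.08 and 0.38 ± 0.12). Me1, Idh1 and H6pd were called in set 2 (-0.42 ± 0.09, 0.38 ± 0.1 and 0.73 ± 0.16) and not in set 1. Of 15 genes that act on acetyl-CoA carboxylase or its transcription, 3 rose and 3 fell. Prkab2, a subunit of the kinase AMPK, fell by 0.63 ± 0.14, Prkag2 fell by 0.30 ± 0.07, and Prkag1 rose by 0.21 ± 0.04. Prkab2 and Prkag2 fell by 1.05 ± 0.21 and 0.53 ± 0.11 in set 1 and were not called in set 2. Prkag1 rose by 0.37 ± 0.05 in set 2 and was not called in set 1. The sets differed for it by -0.32 ± 0.07 (set 1 minus set 2, adjusted p = 0.021, limma). Trib1, a Tribbles partner of COP1, was 24.6, 28.9, 31.6 and 25.1 RPKM in set 2 controls, 78.4, 54.3, 72.1 and 54.7 after Cop1 deletion and 41.3 to 50.7 with the Etv4/5 label. It rose by 1.21 ± 0.12 in set 2 (adjusted p = 1.5e-06, limma), was at -0.04 ± 0.14 in set 1, and the sets differed by -1.25 ± 0.18 (adjusted p = 0.0011, limma). Trib3 was not called (-0.27 ± 0.21). Of 19 other elongases, desaturases and acyl-CoA synthetases tested, 3 fell (Mecr, Degs1 and Elovl2) and none rose, a share near that of all genes.

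Genes that store or burn fatty acids were described in the same way. Among 16 genes of triglyceride synthesis and lipid droplets tested, 5 rose and 2 fell over both sets. Gpat3, which acylates glycerol phosphate, rose by 0.74 ± 0.11 and Bscl2, a lipid droplet protein, by 0.29 ± 0.06. Gpat3 rose by 1.14 ± 0.14 in set 2 and was not called in set 1. Dgat2, which makes triglyceride, was 2.17, 2.38 and 2.37 RPKM in set 1 controls and 1.83, 1.91 and 1.85 after Cop1 deletion, and 3.89, 3.88, 2.78 and 4.1 against 8.51, 9.07, 8.71 and 7.46 in set 2, a rise of 1.11 ± 0.12 in set 2 (adjusted p = 7e-06, limma) and a difference of -1.36 ± 0.19 between the sets (adjusted p = 0.00071, limma). Agpat3 and Cidea fell (-0.40 ± 0.06 and -0.75 ± 0.15). Cidea was at -1.15 ± 0.23 in set 1 and was not called in set 2. Of 17 fatty acid oxidation genes tested, 3 rose and 3 fell, among them Hadh, a dehydrogenase abundant in β cells, which fell by 1.04 ± 0.14, Ppargc1a, which fell by 0.84 ± 0.14, and Acads, which rose by 0.26 ± 0.05. The sets differed for Ppargc1a by -1.22 ± 0.29 (set 1 minus set 2, adjusted p = 0.026, limma). Its change was -1.46 ± 0.22 in set 1, and it was not called in set 2.

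Markers of other cells moved with some of these comparisons. Ductal markers (6 listed, 4 or 5 of them at 1 RPKM or more) summed to 153 to 194 RPKM in set 1 controls, 239 to 298 after Cop1 deletion and 161 to 185 with the Etv1/4/5 label, and to 1060 to 1540, 2510 to 4040 and 954 to 2570 in set 2. Cftr did not exceed 0.193 RPKM in any library. β-cell markers summed to 263000 to 298000 RPKM in set 1 controls, 217000 to 238000 after Cop1 deletion and 264000 to 298000 with the Etv1/4/5 label, mostly Ins1 and Ins2. As for Msmo1 and Hsd17b7, Cop1 deletion was the lowest group of set 1. In set 2 the β-cell sums overlapped, at 166000 to 232000, 165000 to 243000 and 212000 to 238000. Single β-cell markers did change after Cop1 deletion. In set 2 the log2 fold changes were -3.65 ± 0.3 for Mafa, -3.37 ± 0.24 for Slc2a2, -0.59 ± 0.14 for Nkx6-1, -0.56 ± 0.12 for Ins1 and 0.44 ± 0.14 for Iapp. In set 1 they were -1.95 ± 0.35 for Mafa, -2 ± 0.28 for Slc2a2, -0.8 ± 0.16 for Nkx6-1 and -0.92 ± 0.13 for Ins1. The other markers of this list were not called in either set. Immune markers summed to 66.3 to 138 RPKM in set 2 controls and 112 to 366 after Cop1 deletion, and to 179 to 201 and 147 to 207 in set 1. Adipocyte markers, of which Fabp4 alone reached 1 RPKM, summed to 9.68 to 13.4 RPKM in set 1 controls and 6.35 to 11.5 after Cop1 deletion, and to 15.1 to 32.9 and 22 to 43.7 in set 2. The 2 δ-cell markers summed to 3630 to 7090 RPKM in set 1 controls, 2320 to 2800 after Cop1 deletion and 4520 to 7240 with the Etv1/4/5 label, with the lowest group again that of Msmo1 and Hsd17b7, and to 3830 to 5470, 2190 to 2940 and 2190 to 2980 in set 2. Among them Sst, the hormone of δ cells, fell over both sets by 0.84 ± 0.14 (adjusted p = 0.00031, limma). Ppy, the hormone of PP cells, was 1100 to 2470 RPKM in set 1 controls and 4600 to 6260 after Cop1 deletion, and rose over both sets by 1.33 ± 0.27 (adjusted p = 0.0016, limma). The part of these sums in the members' changes was not tested.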

How the data were processed

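RNA of 22 mouse islet libraries was compared in 6 groups. The authors deposited 1 table of RPKM values for 28059 genes, on build mm9 (from the submitters' processing notes). The aligner and counter were not given in the sources used here. Of 24 columns, 22 were placed by the sample number in their name and title, and 2 were not used. Symbols were taken by NCBI Gene number from RefSeq (GRCm38.p6), which matched 24998 genes and left 3061. The 14342 genes that reached 1 RPKM in 4 or more libraries were fitted as log2(RPKM + 0.5) with limma 3.58.1 in R 4.3.3 (trend and robust options, 6 group means in 1 fit so that all groups share the estimate of spread), in 9 comparisons. Adjusted p-values are Benjamini-Hochberg over all genes, with a threshold of 0.05. RPKM carries no count, so precision comes from the spread between libraries and no count model was used. Total RPKM ran from 524289 to 682560. Members and lists were chosen with earlier results of these data known. Every member could be named, and of other lists up to 4 called genes of smallest adjusted p in a comparison. The script was tested on simulated data. The alternatives tried were other pseudocounts, filters, scalings and model options, and leaving out libraries. Some genes of the other lists are not reported here.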

Additional observations from a re-analysis of the deposited data

Results flagged for a closer look

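In groups of 4 libraries, 22 of 128 gene and group combinations had 1 library set apart from the other 3 by Dixon's criterion, where chance gives about 1 in 20. Of the 22, 18 were high values in set 2 control replicate 4, in RPKM. Among the sterol genes these were Acat2 7.47, Mvk 9.51, Pmvk 52.0, Mvd 16.5, Fdps 9.22, Fdft1 18.1, Lss 46.6, Cyp51 39.0, Msmo1 101.0, Nsdhl 13.6, Ebp 19.8 and Dhcr7 16.2. The fatty acid genes were Scd1 12.5, Scd2 160.0 and Fads2 27.4, and the others Srebf1 57.5, Insig1 27.7 and Stard4 17.1. Set 2 Cop1 deletion replicate 2 stood apart with the lowest Acaca of its group, 0.382 RPKM, and the highest Pmvk, 40.5 RPKM. Set 2 Etv4/5 replicate 1 had the lowest Srebf1 and Srebf2 of its group, 23.4 and 24.4 RPKM.

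A difference between the sets passed the test for the effect of Cop1 deletion on Elovl6 (0.89) and Sqle (0.49) and for the effect of the added Etv label on Elovl6 (-0.85), each as log2 fold change in set 1 minus set 2.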

How the results depend on the processing

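No paired analysis was possible because the labels give no replicate numbers. Over 1000 recomputed values of called members, 842 kept their call, 158 lost it and 0 changed direction, and the cause was not tested. Counts of called members follow, with the range over single libraries left out. Over both sets 10 were called (6 to 12), 5 at equal total RPKM. In set 1, 4 were called after Cop1 deletion (1 to 7), 1 at equal total RPKM, 1 with Ins1 and Ins2 left out of that total, 7 with set 1 fitted alone and 16 with array weights. The count was 1 without control replicate 1, Cop1 deletion replicate 2 or 3, and 2 without control replicate 2 or 3, Cop1 deletion replicate 4 or set 2 Etv4/5 replicate 2. In set 2, 7 were called (7 to 9), 12 without Ins1 and Ins2 in the total, 3 with set 2 alone and 4 with Xist libraries only. For the difference in Cop1 effect, 2 were called (1 to 6), 13 with array weights and 1 with set 2 Xist libraries only. For added Etv1/4/5, 3 were called (2 to 6), 7 with set 1 alone and 11 with array weights. For added Etv4/5, 1 was called (0 to 3), 4 with array weights and 0 with no filter, equal totals, totals without Ins1 and Ins2, no trend and robust options, set 2 alone or set 2 Xist libraries only. Against control, Etv1/4/5 gave 0 (0 to 1) and 7 with array weights. Etv4/5 against control gave 1 (0 to 2), 2 without Ins1 and Ins2, 9 with array weights and 0 with set 2 alone or Xist libraries only. The difference in Etv effect gave 1 (1 to 2) and 9 with array weights. Shares of all genes called with array weights are not given here, so those counts are not read as results about the members. Set by set fits give no mean or difference between sets.

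Further alternatives were chosen after seeing the data. With set 1 control replicate 2 and set 2 control replicate 4 left out together, the counts were 5 for the difference in Cop1 effect, 6 for added Etv1/4/5, 3 for added Etv4/5, 1 and 2 for Etv1/4/5 and Etv4/5 against control, and 2 for the difference in Etv effect. With set 1 libraries of Xist under 1 RPKM only, they were 6 over both sets, 1 in set 1, 1 for added Etv1/4/5, and 0 for added Etv4/5 and for both differences.

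Scaling moved the calls over all genes. For the mean of both sets, 1372 genes were higher and 1505 lower, against 1490 and 839 at equal total RPKM and 751 and 2590 without Ins1 and Ins2. In set 1 it was 580 and 615, against 1121 and 256 at equal total. In set 2 it was 1303 and 1399, against 840 and 1636, and 632 and 4049. The Cop1 difference had 143 and 263, against 527 and 82, and 301 and 83. Added Etv1/4/5 had 523 and 386, against 238 and 1390, and 319 and 402. Added Etv4/5 had 97 and 151, against 110 and 65 without Ins1 and Ins2. Etv1/4/5 against control had 129 and 60, against 84 and 68 without them. Etv4/5 against control had 715 and 538, against 429 and 776, and 385 and 1357. The Etv difference had 336 and 246, against 104 and 473, and 121 and 290. What depth adds to the spread of genes near 1 RPKM, such as Acaca, was not tested.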
